A study of Mus musculus with 15 samples.

Results

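The genes described here encode voltage-gated calcium channels, voltage-gated sodium channels and HCN channels, pore-forming and accessory subunits alike. They were taken from the expression table by gene symbol alone, as every row annotated to exactly 1 gene of the Cacna, Cacnb, Cacng, Scn or Hcn families. This gave 39 genes out of 22180 in the table. Of these, 35 passed a filter that left out the 25% of genes with the lowest mean signal, and 4 did not (Scn4b, Scn7a, Scn10a and Scn11a).

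Calcium channels let calcium enter when the membrane depolarises. Their pore is the alpha-1 subunit, which sets the current type (L, P/Q, N, R or T), and beta and alpha2delta subunits bring the pore to the membrane and adjust its gating. Several gamma-subunit genes encode TARPs, which escort AMPA-type glutamate receptors to the synapse instead. Sodium channel pores carry the rising phase of the action potential and are tuned by their beta subunits, while HCN channels open on hyperpolarisation and carry the pacemaker current. Thalamic relay neurons are known for low-threshold bursts carried by T-type channels and for rhythmic firing to which HCN channels contribute.

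The study measured total RNA of sorted mouse embryonic thalamic cells on Affymetrix arrays. All embryos were on a C57BL/6 background and carried Gbx2CreER-IRES-EGFP/+ together with R26lsl-tdTomato/+. Green fluorescence therefore reports the Gbx2 locus, active in early thalamic neurons, and red fluorescence marks cells, and their descendants, in which CreER had acted after tamoxifen. There were 3 arrays in each of 5 groups, labelled as biological replicates, with no litter or embryo pool named, so the p-values measure the spread between these samples. The E18.5 groups were red, green and double-labelled cells from embryos whose mothers received 4 mg tamoxifen at E9. The E14.5 groups were red and green cells after 4 mg tamoxifen at E9.5, so stage and day of tamoxifen changed together. The sort gates are not given in the sources used here. Since every group carries the same alleles and received tamoxifen, no group is a wild-type control, and 1 copy of Gbx2 carries the insertion in all of them.

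Signals are log2 values as deposited, and signals of different genes come from different probes and are not set against each other. The mean of an array was 6.17 to 6.19 at E18.5 and 5.63 to 5.65 at E14.5. Differences within a stage were tested on the deposited values, and differences between stages after quantile normalization of the 15 arrays. A gene was called where limma's adjusted p over 16635 tested genes was under 0.05. Replicate 1 of the E18.5 red and of the E18.5 double-labelled group had a narrower spread of values (SD 1.34 and 1.31) than the other 7 E18.5 arrays (1.44 to 1.51), and these are called the narrow-range arrays. Of the 39 channel genes, 14 lay above and 10 below all of those 7 arrays in the red array, and 10 above and 13 below in the double-labelled array. No channel gene call made with all arrays was lost without these 2 arrays, and each one gained without them is given. In bulk RNA of a sorted population, fewer cells of a type and less RNA per cell cannot be told apart.

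Red and green cells at E14.5 were compared to ask which genes separate cells labelled by early Gbx2 activity from cells with ongoing Gbx2 reporter signal. In red cells 8 channel genes were higher, namely the L-type pores Cacna1c and Cacna1d, the R-type pore Cacna1e, the T-type pore Cacna1h, the beta subunit Cacnb2, the TARPs Cacng3 and Cacng4, and the sodium pore Scn2a. The alpha2delta subunit Cacna2d1 was lower. These 9 calls among 35 tested genes (25.7%) compare with 3.52% of all tested genes, 1.89% higher and 1.64% lower. The median difference of the channel genes was 0.24, against 0 for all tested genes. In 22 of the 35 (62.9%) the red and green arrays did not overlap, against 27.9% of all tested genes.

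**Figure D1:**
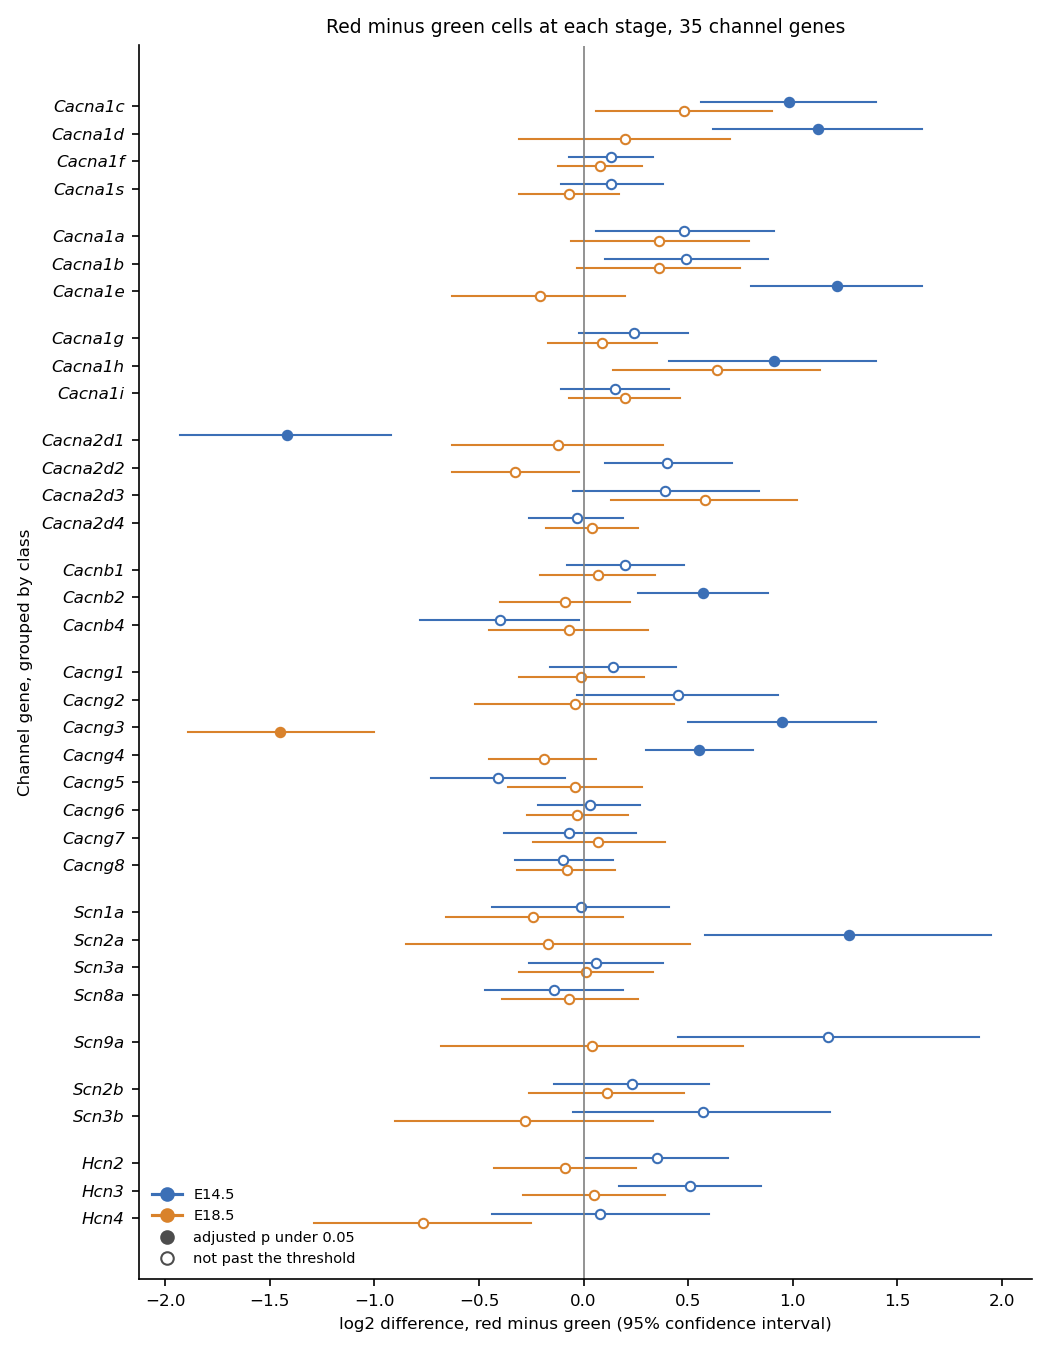
Red minus green difference (log2, x axis) with its 95% confidence interval for the 35 tested channel genes, by class, at E14.5 and E18.5; filled points passed limma's adjusted p of 0.05. At E14.5 the 9 called genes run from -1.42 (Cacna2d1) to 1.27 (Scn2a), and at E18.5 the 1 called gene is Cacng3 at -1.45.

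Among pores, Cacna1e encodes the R-type channel, a high-voltage-activated channel of dendrites and presynaptic terminals. Its signal was 8.28, 8.65 and 8.32 in the red and 7.53, 7.08 and 7.02 in the green E14.5 arrays. Every red array lay above every green array, and the difference was 1.21 ± 0.19 (SE), 2.31-fold, with a limma adjusted p of 0.0025. The L-type pore Cacna1c, which couples calcium entry to transcription and contraction in many tissues, read 7.03, 7.29 and 6.90 in red against 6.32, 5.95 and 6.00 in green arrays. The groups were again separate, by 0.98 ± 0.20 (adjusted p 0.011). Its relative Cacna1d, an L-type pore that opens at more negative voltages, read 6.94, 6.99 and 6.75 against 5.98, 5.69 and 5.64. This gap of 1.12 ± 0.23 (adjusted p 0.014) put all red arrays above all green arrays.

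The other 2 L-type genes, Cacna1s and Cacna1f, known from skeletal muscle and retina, differed by 0.13 each and were not called. Of the T-type pores, Cacna1h read 7.27, 7.40 and 7.36 in red and 6.69, 6.36 and 6.26 in green arrays. It was higher in red by 0.91 ± 0.23 (adjusted p 0.046). Cacna1g, the T-type pore that carries most of the burst current of relay neurons, read 7.61, 7.68 and 7.50 against 7.25, 7.44 and 7.37, a difference of 0.24 that was not called (adjusted p 0.48). Cacna1i, the T-type pore of the reticular thalamic nucleus, differed by 0.15 (adjusted p 0.81). The P/Q-type pore Cacna1a and the N-type pore Cacna1b, which drive transmitter release, differed by 0.48 and 0.49 with groups that did not overlap, and neither was called (adjusted p 0.32 and 0.24).

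Among sodium channels, Scn2a, the main axonal pore of immature neurons, read 8.99, 8.77 and 8.62 in red and 8.03, 7.33 and 7.23 in green arrays. All red arrays lay above all green arrays, by 1.27 ± 0.32 or 2.40-fold (adjusted p 0.042). Scn9a, a pore best known from sensory and hypothalamic neurons, read 7.49, 7.70 and 7.54 against 6.87, 6.11 and 6.23, and its difference of 1.17 ± 0.34 missed the threshold (adjusted p 0.084). The remaining central pores were close to equal, with Scn1a at -0.01, Scn3a at 0.06 and Scn8a at -0.14, and intervals of -0.44 to 0.41, -0.26 to 0.38 and -0.47 to 0.19. Scn3a, the pore of embryonic brain, read 8.96, 9.09 and 8.84 in red and 9.01, 8.85 and 8.84 in green arrays, which overlap. The beta subunit Scn3b differed by 0.57 (adjusted p 0.50) and Scn2b by 0.23 (adjusted p 0.77).

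Scn2a and Scn3a are next to each other on the chromosome among protein-coding genes of the reference annotation, as are Scn1a and Scn9a. Neighbours thus gave unlike differences, 1.27 beside 0.06 and 1.17 beside -0.01. The same held in the run of Cacng1, Cacng4 and Cacng5, with 0.14, 0.55 and -0.41. None of these pairs was tested against each other.

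Cacna2d1, the alpha2delta subunit that binds gabapentin and thrombospondin, went the other way. It read 7.07, 6.91 and 7.08 in red and 8.26, 8.57 and 8.50 in green arrays. The red arrays all lay below the green ones, by 1.42 ± 0.24 or 2.68-fold (adjusted p 0.0034). Its relatives Cacna2d2, Cacna2d3 and Cacna2d4 differed by 0.40, 0.39 and -0.03 and were not called.

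Of the beta subunits, Cacnb2 read 6.26, 6.30 and 6.08 in red against 5.77, 5.59 and 5.58 in green arrays, a difference of 0.57 ± 0.15 (adjusted p 0.047). A further probe set of Cacnb2 differed by 0.28, and with the mean of both the call was lost. Cacnb1, the beta subunit also used in muscle, differed by 0.20 and Cacnb4, a beta subunit of central neurons, by -0.40, neither called. A further probe set of Cacnb4 differed by -0.36.

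Of the TARPs, Cacng4 read 8.62, 8.67 and 8.67 in red against 8.18, 8.07 and 8.05 in green arrays, a difference of 0.55 ± 0.12 (adjusted p 0.018). Cacng3, the TARP abundant in forebrain excitatory neurons, read 7.34, 6.81 and 7.01 against 6.27, 5.84 and 6.20, a difference of 0.95 ± 0.21 (adjusted p 0.020). Cacng2 (stargazin) differed by 0.45 and Cacng5 by -0.41, with separate groups in both and no call (adjusted p 0.47 and 0.23). A further probe set of Cacng2 differed by 0.06. The skeletal muscle subunit Cacng1 and its relative Cacng6, and the TARPs Cacng7 and Cacng8, differed by at most 0.14 in size.

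The HCN channels gave no call at E14.5 in the fit of all arrays. Hcn3 read 6.68, 6.87 and 6.79 in red and 6.43, 6.36 and 6.01 in green arrays, 0.51 higher with separate groups (adjusted p 0.12). Hcn2, the HCN subunit that dominates in relay neurons, differed by 0.35 (adjusted p 0.41) with overlapping groups. Hcn4, the sinus node pacemaker subunit that is also expressed in thalamus, read 6.56, 6.47 and 6.59 against 6.44, 6.46 and 6.49, a difference of 0.08.

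**Figure D2:**
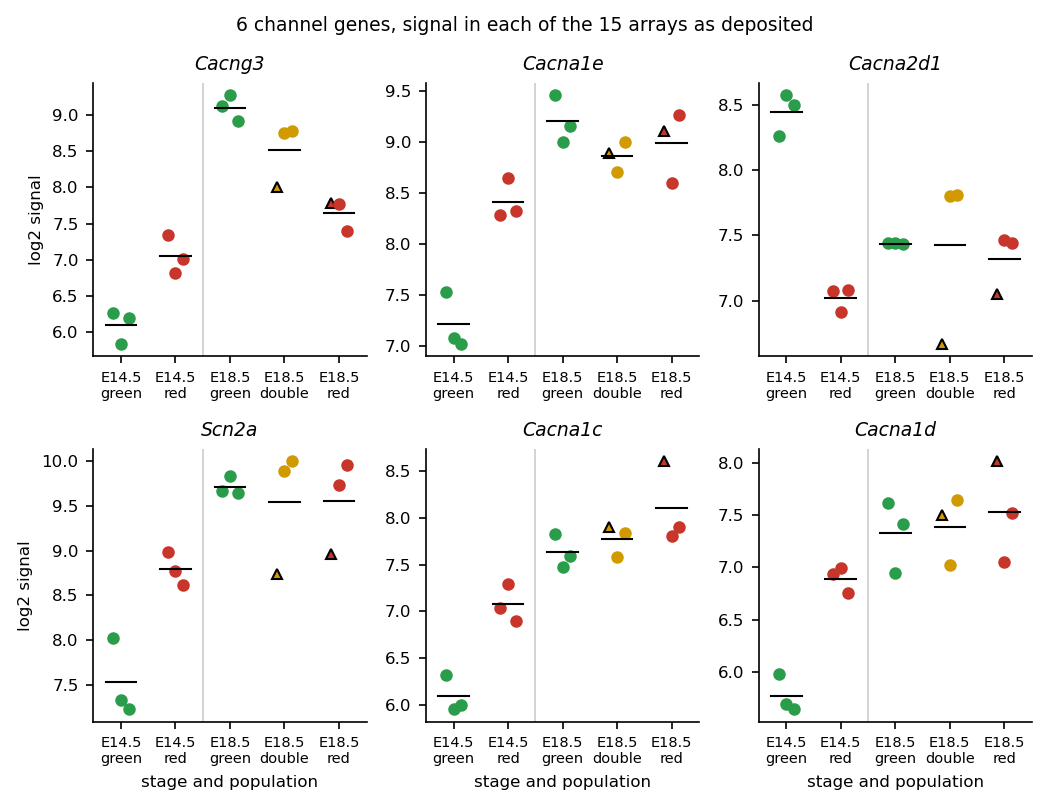
Deposited log2 signal (y axis) in each of the 15 arrays for 6 channel genes, by group; lines are group means and triangles the narrow-range arrays. At E14.5 red arrays lie above green ones for Cacng3, Cacna1e, Scn2a, Cacna1c and Cacna1d and below them for Cacna2d1, and the levels of the 2 stages carry the stage shift of the deposited values.

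Of the 9 calls, those of Cacna1e and Cacna2d1 held under every alternative tried. With 1 array left out the count of channel genes called fell to 3 on omitting red replicate 1 or 2, to 4 on omitting red replicate 3, and to 2 on omitting green replicate 2 or 3, and the other 7 genes kept their direction with adjusted p up to 0.23. After quantile normalization (647 of all genes called) Cacna1c and Cacna1h were no longer called and no channel gene was added. With no filter on low values (571 called) Cacna1h, Cacnb2 and Scn2a were no longer called. Other fits that called more genes added channel genes. With the E14.5 arrays alone (1367 of all genes called) these were Cacna1a, Cacnb4, Cacng2, Hcn3, Scn3b and Scn9a. With 1 weight per stage (1703 called) they were Cacna1a, Cacna1b, Cacna2d2, Cacnb4, Cacng5, Hcn3 and Scn9a. With the replicate number as a block (842 called) they were Cacna1b and Scn9a.

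Markers of other cell states moved along this comparison too. Of 9 progenitor genes, Top2a and Mki67, which mark dividing cells, and Nes were lower in red cells, by 1.89, 1.17 and 0.54, and none was higher; the list's summed log2 signal was 11.07 to 11.20 in red and 11.41 to 11.46 in green arrays. Of 9 thalamic genes, Lhx2 and Lhx9 were lower in red cells and Rora and Ntng1 higher, and Gbx2 itself read 7.28 to 7.33 in red and 7.88 to 8.21 in green arrays. None of 5 general neuronal genes was called. Of 6 midbrain dopamine genes only Slc18a2 was called, higher in red cells, at 9.88 to 10.14 against 7.39 to 8.95 in green arrays. The list's summed signal, 10.17 to 10.40 against 8.54 to 9.45, followed this 1 gene. The median difference of the list was 0.10, with 4 differences above and 2 below 0. Slc1a3 of the astrocyte list, Gad2 of the GABAergic list and the embryonic globin Hbb-y were higher in red cells too, by 1.01, 0.82 and 1.46. The part of these cell states in the channel differences was not tested.

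At E18.5, red and green cells were compared with each other and with double-labelled cells. Among the channel genes only Cacng3 was called between red and green cells, 1 of 35 against 0.613% of all tested genes (0.349% lower in red). In 6 of the 35 (17.1%) the arrays did not overlap, against 15.3% of all. Cacng3 read 7.78, 7.77 and 7.40 in red, 9.12, 9.27 and 8.91 in green and 8, 8.75 and 8.78 in double-labelled arrays. The red arrays lay below all green arrays, the reverse of E14.5, and the double-labelled arrays fell between. The red-green difference was -1.45 ± 0.21, 2.72-fold (adjusted p 0.0052). It was lost when the E18.5 arrays were fitted alone (adjusted p 0.076) and kept when any 1 array was left out, with differences of -1.54 to -1.32, and without the narrow-range arrays (-1.51).

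The genes with the next smallest p between red and green cells were not called. Hcn4 read 6.50, 7.70 and 7.19 in red and 7.68, 7.89 and 8.13 in green arrays, a difference of -0.77 (adjusted p 0.26). Red replicate 1 is its lowest array, and without it the difference was -0.46. The alpha2delta subunit Cacna2d3 differed by 0.58 (adjusted p 0.36), with 7.56 ± 0.22 (SD, n = 3) in red and 6.98 ± 0.29 in green arrays. Cacna1h differed by 0.64 (adjusted p 0.37) and Cacna1c by 0.48 (adjusted p 0.44), and in both the highest red array was the narrow-range replicate 1, at 8.44 and 8.61. These differences were 0.30 (adjusted p 0.44) and 0.22 (adjusted p 0.65) without the narrow-range arrays. Of the genes called at E14.5, Cacna1e (-0.21), Cacna1d (0.20), Scn2a (-0.17), Cacna2d1 (-0.12), Cacnb2 (-0.09) and Cacng4 (-0.19) were not called at E18.5. Of these Cacna1d (-0.05), Scn2a (0.13) and Cacna2d1 (0.01) changed sign without the narrow-range arrays, Cacng4 was at -0.05, and none was called.

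Double-labelled cells gave no channel call against green cells, where 0.0361% of all genes were called, or against red cells, where 0.0902% were. Unadjusted p was under 0.05 for 3 and 2 of 35 channel genes, and for 949 and 752 of the 16635 genes tested. Against green cells the smallest p were those of Cacna2d3 (0.62), Cacng3 (-0.59), Scn3a (-0.35), Hcn4 (-0.43) and Cacna1e (-0.34), with adjusted p of 0.67 to 0.84. Against red cells they were those of Cacng3 (0.86), Scn3a (-0.36), Cacna2d2 (0.29), Cacna1c (-0.34) and Cacng4 (0.18), with adjusted p of 0.31 for Cacng3 and 1 for the others. With the replicate number as a block the adjusted p of Cacng3 was 0.13. Without the narrow-range arrays the differences against green cells were -0.33 for Cacng3, -0.20 for Scn3a and -0.25 for Hcn4, and those against red cells were -0.19 for Scn3a, 0.48 for Cacna2d2, -0.15 for Cacna1c and 0.11 for Cacng4, none called. Cacng3 was called against red cells without the narrow-range arrays (1.18, adjusted p 0.020) and without double-labelled replicate 1 (1.11, adjusted p 0.030). These 3 comparisons share arrays, so their values stand side by side and are not independent.

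All 6 genes of a midbrain dopamine list, such as Th (tyrosine hydroxylase), were higher in E18.5 red than in green cells, with a summed log2 signal of 11.19 to 11.33 against 9.22 to 9.63 and 9.86 to 10.26 in double-labelled cells. Of 9 thalamic genes 8 had a lower mean in red than in green cells, 6 of them with no overlap, and Gbx2 (-2.07) and Lhx9 (-0.99) were called lower; the list's summed signal was 12.47 to 13 in red, 13.27 to 13.41 in green and 12.85 to 13.24 in double-labelled arrays. Gbx2 read 5.45 to 7.16 in red, 8.23 to 8.55 in green and 8 to 8.50 in double-labelled arrays. Sp9, a transcription factor and 1 of 6 GABAergic genes, was higher in red cells (0.88). The part of these populations in the Cacng3 difference was not tested.

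The change of the red-green difference from E14.5 to E18.5 was tested as an interaction. It was called for 2 of 35 channel genes, both with a lower red-green difference at E18.5 (5.71%, against 1.05% of all tested genes, 0.505% lower). For Cacng3 the difference went from 0.95 to -1.45, an interaction of -2.40 ± 0.30 (adjusted p 0.00094). For Cacna1e it went from 1.21 to -0.21, an interaction of -1.42 ± 0.27 (adjusted p 0.020). The Cacng3 call held under every alternative tried. The Cacna1e call was lost without E18.5 green replicate 1, E14.5 red replicate 2, E14.5 green replicate 2 or E14.5 green replicate 3 (differences of -1.59 to -1.23 and adjusted p up to 0.076 over single arrays left out) and after quantile normalization. Cacng4 (-0.75, adjusted p 0.051), Cacna2d1 (1.30, adjusted p 0.092) and Cacna2d2 (-0.73, adjusted p 0.13) had the next smallest p and were not called. Without the narrow-range arrays 5 more genes were called: Cacng4 (-0.60), Cacna2d1 (1.43), Cacna2d2 (-0.77), Cacna1d (-1.17) and Scn2a (-1.14). Cacng4 was also called without E18.5 red replicate 2 (-0.83, adjusted p 0.037). With all arrays kept, quantile normalization, the replicate block and 1 weight per stage each called Cacng4 and Cacna2d1. Cacng4 was called as well with no filter on low values and with the mean of each gene's probe sets. The replicate block also called Cacna1d and Scn2a.

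E18.5 was then compared with E14.5 separately for each colour, to ask how channel expression changed over late gestation. As deposited, the median gene was 0.60 higher at E18.5 in red and 0.61 in green cells, and after quantile normalization the median difference was -0.03 in both, so the values here are relative to the typical gene. In red cells 8 channel genes rose and none fell, 22.9% of 35, against 27.5% of all tested genes (12.8% higher and 14.7% lower). In green cells 17 rose and 1 fell, 51.4% of 35, against 33.9% of all (15.7% higher and 18.1% lower). The median difference of the channel genes was 0.16 in red and 0.33 in green cells. The 8 genes that rose in red cells were among the 17 that rose in green cells: Cacnb2, Cacng2, Cacng4, Cacng5, Hcn2, Hcn3, Scn2b and Scn3b. The same overlap was not counted over all tested genes, so it is not read as particular to channel genes. Further probe sets of Cacnb2 and Cacng2 disagree with these rises, as given below. As deposited, 30 channel genes in red and 33 in green cells were called, against 12041 and 12226 of all 16635 tested genes. No called channel gene changed direction between the scales. By contrast, 6 uncalled channel genes in red and 4 in green cells were below 0 here and above 0 as deposited, Scn1a and Scn3a in both. Without the narrow-range arrays the 8 calls in red cells held and 4 genes joined them, Cacnb4 (0.46) higher and Scn1a (-0.57), Scn9a (-1.13) and Cacna1h (-0.56) lower. In green cells Cacna1a (0.64) and Cacng1 (0.33) joined the calls. Subtracting array medians in place of quantile normalization ended the red calls of Cacng2 (0.58, adjusted p 0.057), Scn3b (0.74, 0.059) and Cacng4 (0.22, 0.19) and the green calls of Cacna1f (0.17, 0.26) and Cacna1s (0.23, 0.18).

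Cell type markers moved between the stages as well. In green cells 7 of 9 progenitor genes fell and none rose, with Mki67 (-1.84), Top2a (-1.80) and the intermediate filament gene Nes (-1.23) falling most. In red cells 2 of the 9 fell and 2 rose. Of 6 midbrain dopamine genes 5 rose in red cells, such as Th (2.41) and Aldh1a1 (3), and none was called in green cells. Of 9 thalamic genes 4 fell in red cells, Gbx2 by 1.61, while in green cells Prox1 rose and Lhx2 fell. Of 5 general neuronal genes Rbfox3 and Snap25 rose in red cells and Stmn2 in green cells. These marker counts depended on the scale. As deposited 3 progenitor genes were called higher and 3 lower in green cells, and 4 higher and 0 lower in red cells. Of the thalamic genes 1 was then higher and 1 lower in red cells, and 5 higher and 0 lower in green cells. All 5 neuronal genes were higher in both populations as deposited, as were 5 of the 6 dopamine genes. The part of these cell types in the channel differences was not tested.

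**Figure D3:**
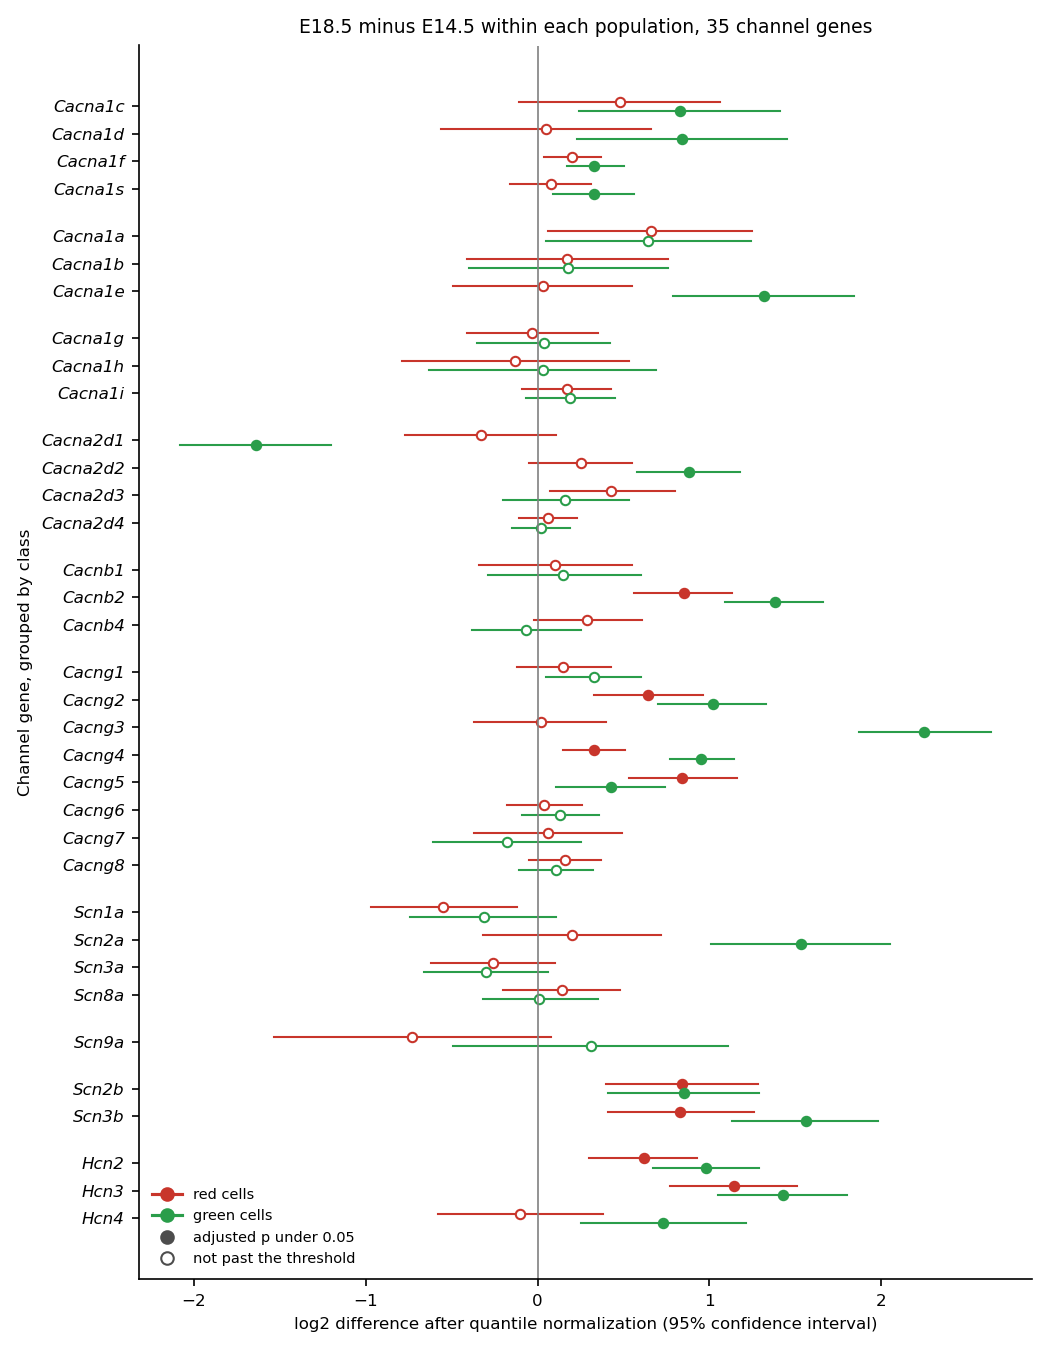
E18.5 minus E14.5 difference (log2 after quantile normalization, x axis) with its 95% confidence interval for the 35 tested channel genes, by class, in red and in green cells; filled points passed limma's adjusted p of 0.05. Filled points in green cells run from -1.64 (Cacna2d1) to 2.25 (Cacng3), and in red cells the largest is Hcn3 at 1.14.

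The values that follow are quantile-normalized log2 signals. Hcn3, a brain HCN subunit, rose in both populations. It read 7.09, 7.31 and 7.12 in red cells at E14.5 and 8.80, 7.99 and 8.16 at E18.5, a rise of 1.14 ± 0.17 (2.21-fold, adjusted p 0.00037). The highest of these is the narrow-range array, and without the narrow-range arrays the rise was 0.90 (adjusted p 0.00013). In green cells it read 6.82, 6.76 and 6.42 and then 8.05, 8.10 and 8.12, a rise of 1.43 ± 0.17 (2.69-fold, adjusted p 3.1e-05). Every E18.5 array lay above every E14.5 array of the same colour. Hcn2 read 6.09, 6.36 and 6.34 in red cells at E14.5 and 6.56, 7.12 and 6.97 at E18.5, a rise of 0.62 ± 0.15 (adjusted p 0.0066). The green arrays went from 5.85, 5.83 and 6.15 to 6.85, 6.99 and 6.93, a rise of 0.98 ± 0.15 (adjusted p 0.00016).

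Hcn4 rose by 0.73 ± 0.22 in green cells (adjusted p 0.021), from 6.83, 6.85 and 6.85 to 7.39, 7.52 and 7.81. In red cells its difference was -0.10, from 6.97, 6.92 and 6.93 to 6.20, 7.43 and 6.89, with the narrow-range array lowest. That difference turned to 0.22 (adjusted p 0.27) without the narrow-range arrays. The green call of Hcn4 was lost without E18.5 green replicate 3 or any 1 of the E14.5 green arrays, with rises of 0.61 to 0.83 and adjusted p up to 0.087 over single arrays left out. The interaction for Hcn4 was not called (-0.85, adjusted p 0.42). Thus every HCN gene measured rose in green cells and 2 of 3 in red cells.

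**Figure D4:**
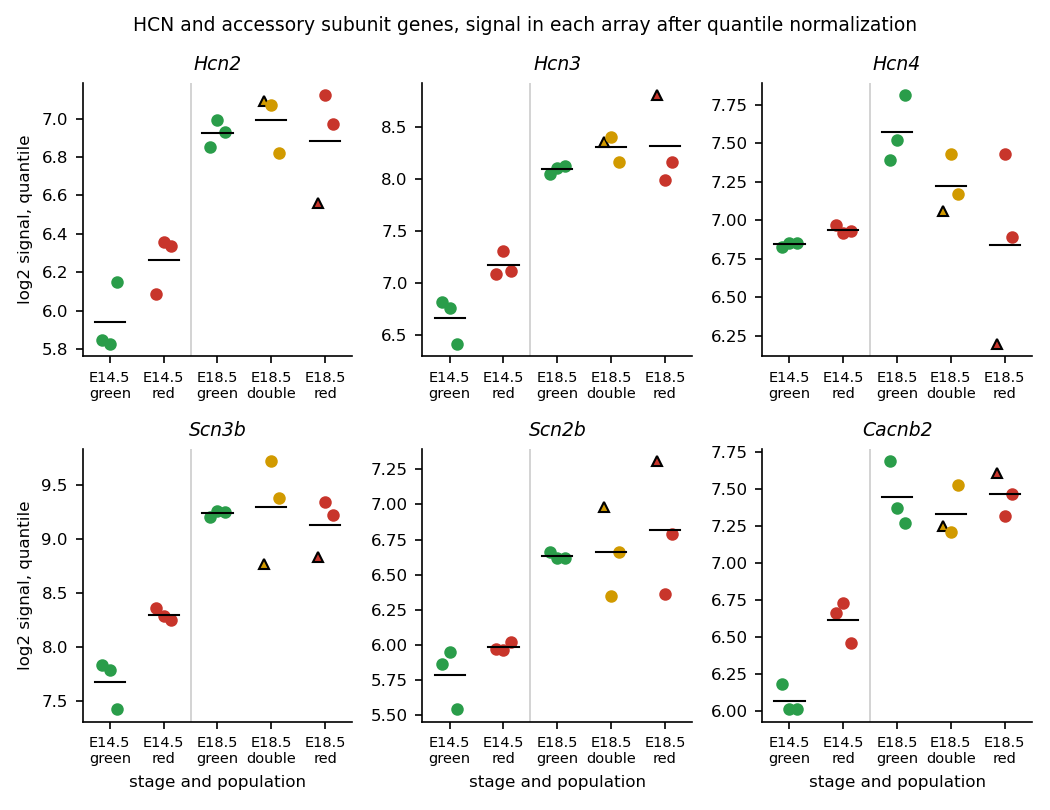
Quantile-normalized log2 signal (y axis) in each of the 15 arrays for 6 channel genes that were called between stages, by group; lines are group means and triangles the narrow-range arrays. Hcn2, Hcn3, Scn3b, Scn2b and Cacnb2 are higher in all E18.5 red and green arrays than in the E14.5 arrays of the same colour, and Hcn4 is so in green cells.

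Both tested sodium channel beta subunits rose in both populations. Scn3b read 8.36, 8.28 and 8.25 in red cells at E14.5 and 8.83, 9.34 and 9.22 at E18.5, a rise of 0.83 ± 0.20 (adjusted p 0.0070). The green arrays went from 7.83, 7.78 and 7.42 to 9.20, 9.26 and 9.25, a rise of 1.56 ± 0.20, 2.94-fold (adjusted p 4.7e-05). No array of one stage reached the range of the other. Scn2b rose by 0.84 ± 0.20 in red cells, from 5.97, 5.96 and 6.02 to 7.31, 6.36 and 6.79 (adjusted p 0.0080), and by 0.59 without the narrow-range arrays (adjusted p 0.0055). It rose by 0.85 ± 0.20 in green cells, from 5.86, 5.95 and 5.54 to 6.66, 6.62 and 6.62 (adjusted p 0.0055).

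Of the sodium pores only Scn2a was called with all arrays. In green cells it went from 8.36, 7.66 and 7.56 to 9.39, 9.46 and 9.33, a rise of 1.53 ± 0.24, 2.89-fold (adjusted p 0.00029). In red cells it read 9.37, 9.24 and 8.96 at E14.5 and 9.04, 9.45 and 9.68 at E18.5, which overlap, with a difference of 0.20, or 0.38 without the narrow-range arrays (adjusted p 0.14). The interaction for Scn2a was not called with all arrays and no replicate block (-1.43, adjusted p 0.21). Scn1a, the pore whose loss causes Dravet syndrome, differed by -0.55 and -0.31 in red and green cells, Scn3a by -0.26 and -0.30, Scn8a by 0.14 and 0.01 and Scn9a by -0.73 and 0.31, none called with all arrays. Without the narrow-range arrays Scn1a (-0.57, adjusted p 0.015) and Scn9a (-1.13, adjusted p 0.014) were called lower in red cells, and Scn3a was at -0.41 (adjusted p 0.058). Scn1a was also called in red cells with 1 weight per stage, and Scn9a with the replicate block.

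Among calcium channel pores no gene was called between stages in red cells with all arrays, the filter and no replicate block. With the replicate block Cacna1a and Cacna1c were called there, and with no filter on low values Cacna1f was. In green cells all 4 L-type pores and the R-type pore were called higher, Cacna1f and Cacna1s from signal close to background. Cacna1e went from 7.88, 7.43 and 7.36 to 9.17, 8.61 and 8.84, a rise of 1.32 ± 0.24 (2.49-fold, adjusted p 0.00090). The red arrays read 8.67, 9.10 and 8.65 at E14.5 and 9.21, 8.33 and 8.98 at E18.5, with a difference of 0.03, or -0.15 without the narrow-range arrays (adjusted p 0.62). Cacna1c and Cacna1d rose in green cells by 0.83 and 0.84 (adjusted p 0.030 and 0.034), and Cacna1f and Cacna1s by 0.33 each. As deposited Cacna1f and Cacna1s read 4.59 to 4.70 and 4.76 to 5.02 in E14.5 green arrays, under the filter level of 5.07. Their E18.5 green means were 5.52 and 5.80, so they passed the filter through the E18.5 arrays. The calls of Cacna1c and Cacna1d were both lost without E18.5 green replicate 1, E18.5 green replicate 3, E14.5 green replicate 2 or E14.5 green replicate 3, with adjusted p up to 0.13. The Cacna1s call was lost without any of the green arrays except E14.5 green replicate 3, with adjusted p up to 0.14.

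The 3 T-type pores were not called in either population with all arrays. Cacna1g differed by -0.03 in red and 0.04 in green cells, with intervals of -0.41 to 0.35 and -0.35 to 0.42, Cacna1h by -0.13 and 0.03, and Cacna1i by 0.17 and 0.19. Cacna1h was called lower in red cells without the narrow-range arrays (-0.56, adjusted p 0.0081), and Cacna1g was at -0.19 there (adjusted p 0.28). Cacna1a differed by 0.66 and 0.64 (adjusted p 0.093 and 0.089) and Cacna1b by 0.17 and 0.18. Without the narrow-range arrays Cacna1a was called in green cells (0.64, adjusted p 0.00062), while in red cells it was at 0.25 (adjusted p 0.16) and Cacna1b at -0.14 (adjusted p 0.57). Cacna1a was also called in both populations with the replicate block, and in green cells after subtracting array medians.

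Of the accessory calcium channel subunits, Cacnb2 read 6.66, 6.73 and 6.46 in red cells at E14.5 and 7.61, 7.32 and 7.47 at E18.5, a rise of 0.85 ± 0.13 (adjusted p 0.00043). The green arrays went from 6.18, 6.01 and 6.01 to 7.69, 7.37 and 7.27, a rise of 1.38 ± 0.13 (adjusted p 4e-06). The further probe set of Cacnb2 gave -0.39 and -0.14, so the 2 probe sets of this gene disagree. With their mean the red rise was 0.23 (adjusted p 0.20) and the green rise 0.62 (adjusted p 0.0020). Cacnb1 (0.10 and 0.15) and Cacnb4 (0.29 and -0.07) were not called with all arrays. Cacnb4 was called higher in red cells without the narrow-range arrays (0.46, adjusted p 0.011). The further probe set of Cacnb4 gave 0.15 in red and -0.43 in green cells with all arrays.

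Cacna2d1 was the only channel gene called lower at E18.5 with all arrays, no weights and no replicate block. In red cells Scn1a was called lower with 1 weight per stage and Scn9a with the replicate block. Scn1a, Scn9a and Cacna1h were called lower in red cells without the narrow-range arrays, as given above. In green cells Cacna2d1 went from 8.59, 8.90 and 8.83 to 7.16, 7.10 and 7.13, a fall of 1.64 ± 0.20, 3.12-fold lower (adjusted p 3.7e-05). In red cells it read 7.48, 7.36 and 7.40 and then 6.90, 7.20 and 7.15, a difference of -0.33 (adjusted p 0.25). Green cells at E14.5 thus held the highest values of this gene among the 5 groups. Cacna2d2 rose in green cells by 0.88 ± 0.14 (adjusted p 0.00031), from 7.25, 7.43 and 7.27 to 8.20, 8.17 and 8.22, and differed by 0.25 in red cells. Cacna2d3 and Cacna2d4 were not called, apart from Cacna2d3 in red cells with the replicate block.

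Cacng3 showed the largest rise of the channel genes. In green cells it went from 6.66, 6.26 and 6.60 to 8.83, 8.86 and 8.59, a rise of 2.25 ± 0.18, 4.77-fold (adjusted p 6.5e-07). In red cells it read 7.73, 7.26 and 7.34 and then 7.76, 7.51 and 7.11, a difference of 0.02 with an interval of -0.37 to 0.40, or -0.13 without the narrow-range arrays (adjusted p 0.55). The groups overlap in red cells and are far apart in green cells. Cacng2 rose by 0.64 ± 0.15 in red and 1.02 ± 0.15 in green cells (adjusted p 0.0055 and 0.00013), and its further probe set differed by 0.08 and -0.11, which disagrees.

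Cacng4 rose by 0.33 ± 0.09 in red and 0.95 ± 0.09 in green cells (adjusted p 0.012 and 2.2e-06). Cacng5 read 5.36, 5.72 and 5.80 in red cells at E14.5 and 6.25, 6.79 and 6.37 at E18.5, a rise of 0.84 ± 0.15 (adjusted p 0.00099). In green cells Cacng5 rose by 0.43 ± 0.15 (adjusted p 0.038), a call lost without E18.5 green replicate 1, E18.5 green replicate 3 or any 1 of the E14.5 green arrays, with adjusted p up to 0.14. Cacng1, Cacng6, Cacng7 and Cacng8 were not called in either population with all arrays. Cacng1 was called in green cells without the narrow-range arrays (0.33, adjusted p 0.024) and with the replicate block.

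**Figure D5:**
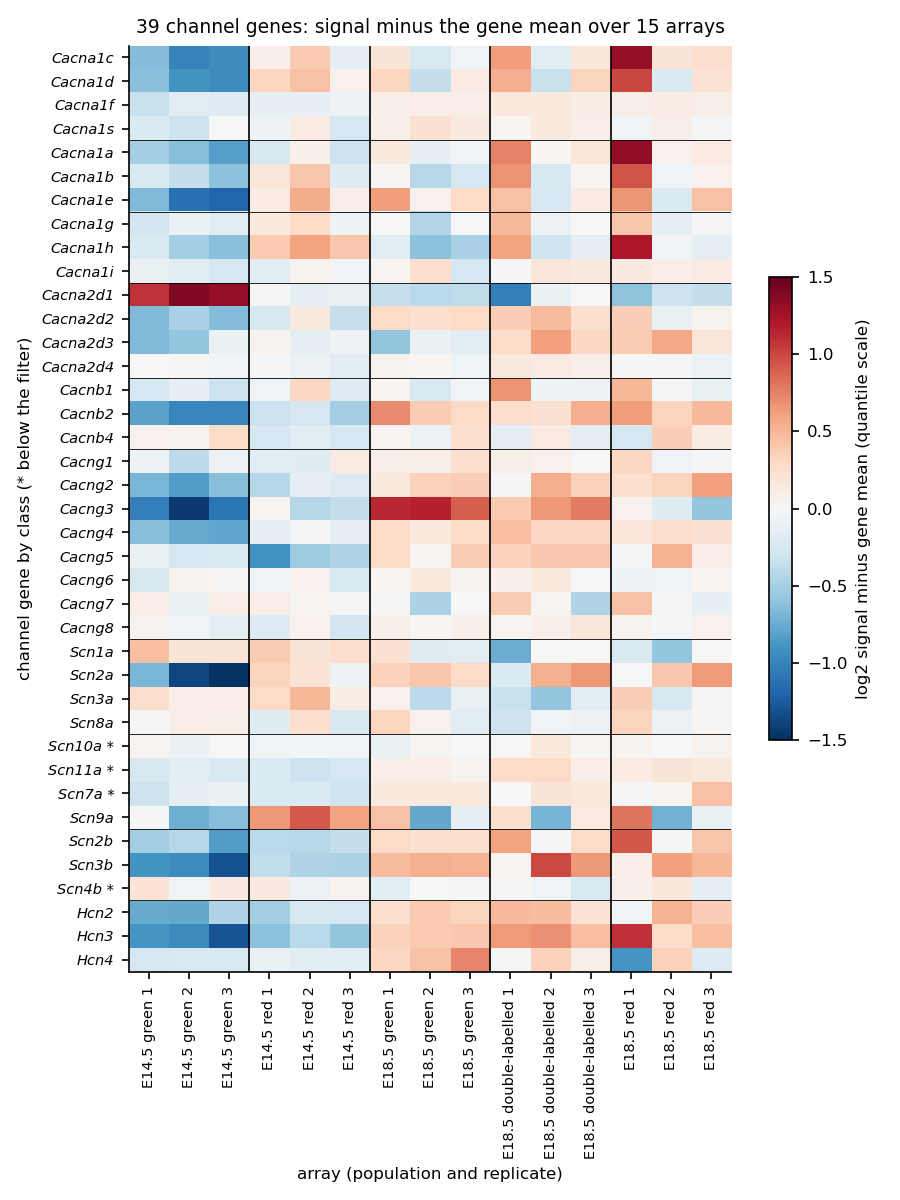
Quantile-normalized log2 signal minus the mean of the same gene over 15 arrays, for all 39 channel genes (rows, by class) and 15 arrays (columns, by group). The E14.5 green columns are low for Cacng3, Scn2a, Cacna1e and Scn3b and high for Cacna2d1, and the narrow-range columns differ from their group mates across many rows.

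Cacnb1, Scn3a and Cacna1g were called in no comparison with all arrays. Cacnb1, of the beta subunits, read 7.96 to 8.31 in E18.5 red and green arrays and 7.17 to 7.66 in E14.5 arrays as deposited. Scn3a, of the central sodium pores, read 9.04 to 9.42 and 8.84 to 9.09, and Cacna1g, of the T-type pores, 7.80 to 8.27 and 7.25 to 7.68. All of these levels carry the stage shift.

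Genes whose products bind or regulate these channels were read beside them, from 35 listed, of which 30 were in the table and 29 were tested. In E14.5 red cells 6 were higher and 2 lower, 27.6% of 29 against 3.52% of all tested genes. By smallest p these began with Rem2, a GTPase that restrains calcium channels (-0.83), Stx1a, a SNARE protein that binds presynaptic calcium channels (0.69), Fgf14, an intracellular regulator of sodium channels (0.84), Pex5l, an auxiliary subunit that controls HCN trafficking (-0.70), and the active-zone proteins Rims1 (0.67) and Rims2 (0.71). At E18.5 only Fam155a, an auxiliary subunit of the leak channel NALCN, was called between red and green cells (-0.83, adjusted p 0.026). This is 3.45% of 29, against 0.613% of all tested genes.

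Between stages 12 partner genes rose and 4 fell in red cells, and 9 rose and 6 fell in green cells. These are 55.2% and 51.7% of the 29, against 27.5% and 33.9% of all tested genes. As deposited 21 partner genes were called higher and 0 lower in red cells, and 23 higher and 1 lower in green cells. Of all tested genes, 11865 were higher and 176 lower in red cells as deposited, and 11818 and 408 in green cells. The number of falls thus depended on the scale. The differences below are after quantile normalization. Fgf13 and Fgf12, which bind sodium channel tails, rose by 2.04 and 2.21 in red and by 2.50 and 2.61 in green cells. The leak channel gene Nalcn rose by 0.91 and 1.24, and Stac, which binds L-type channels, by 0.55 and 1.01. Cachd1, related to the alpha2delta subunits, fell by 1 in red and by 0.63 in green cells (adjusted p 6.1e-05 and 0.0012), and Rem2 fell by 1.01 in green cells (adjusted p 5.8e-05). As deposited Cachd1 was at -0.40 in red cells (limma adjusted p 0.057, not called). Its deposited means in green cells were 8.68 at E18.5 and 8.64 at E14.5. Pex5l rose by 0.75 in red cells, and Fam155a by 1.10 in green cells. Rimbp2, an active-zone protein, rose by 0.60 in red and 1.40 in green cells. The interaction was called for Rem2 (1.08), Pex5l (0.89) and Rimbp2 (-0.93), 10.3% of 29 against 1.05% of all tested genes.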

How the data were processed

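Total RNA from 15 samples (10 ng each) was amplified (Nugen Ovation Pico WTA System V2), and arrays were processed with Affymetrix Expression Console, version not stated, per the submitters' processing notes and the labels. The deposited values were log2 signals per transcript cluster; the authors' normalization is not given in the sources used here. Symbols came from the platform annotation. Of 33794 clusters, 23521 named 1 gene, 1814 several and 8459 none. Per gene, the cluster with the highest mean was kept (1082 genes had several, among them 3 channel genes), and genes with a mean under 5.07 were left out.

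Groups were fitted together with limma 3.58.1 in R 4.3.3 (10 residual and 13.9 total degrees of freedom), with Benjamini-Hochberg adjustment over all tested genes. The test was two-sided and was tested on simulated data. Figures were drawn with matplotlib 3.10.9 in Python 3.11.15, from tables read with pandas 2.3.3. Stage comparisons used values quantile-normalized over the 15 arrays. The number of arrays limits precision. The order of genes on chromosomes came from RefSeq on GRCm38.p6, which all 39 channel genes matched by gene identifier. Some members of these families, and promoter sequences, are not reported here.

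Members, classes, partner and marker lists, tests and alternatives were chosen with earlier results of these data known. Genes were named when called within a stage or in the interaction, for up to 5 rises and 5 falls between stages, for the 5 smallest p where fewer than 5 were called, for the highest mean in a class, and for every HCN gene. Up to 6 called partners were named per comparison. Rem2 and Cachd1 in green cells and Rimbp2 in red cells were added after their values were seen. Other genes are named to account for their class. Same-numbered E18.5 red and double-labelled arrays deviated together (r of 0.67, 0.50 and 0.49). The highest r with another number was -0.46, 0.23 and 0.43, and both arrays numbered 1 are narrow-range arrays. These numbers may therefore pair the samples, but no label states it and the correlations cannot establish it. The values reported for the E18.5 red and double-labelled groups come from the fit without the block. With the replicate block 0 channel genes were called between them as well.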

Additional observations from a re-analysis of the deposited data

Results flagged for a closer look

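The red-green difference of Cacng3 was 0.95 at E14.5 and -1.45 at E18.5, and the difference between the stages was -2.40 (limma adjusted p 0.00094), with opposite directions called at both stages.

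The red-green difference of Cacna1e was 1.21 at E14.5 and -0.21 at E18.5, and the difference between the stages was -1.42 (limma adjusted p 0.020); it was not called at E18.5 alone.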

How the results depend on the processing

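No channel gene called reversed its direction under any alternative. Counts of called channel genes moved as follows. Between E18.5 red and green cells, where 1 was called, 2 were with the replicate block and 0 with the E18.5 arrays alone. Of all tested genes 102 were called there, 234 with the block and 12 with the E18.5 arrays alone. Between double-labelled and red cells, 1 was called without the narrow-range arrays, and 0 to 1 with single arrays left out. All tested genes called between them numbered 15 with all arrays, 39 without the narrow-range arrays and 7 to 21 with single arrays left out. At E14.5, where 9 were called, 16 were with 1 weight per stage, 15 with the E14.5 arrays alone and 4 when a log2 difference of at least 1 was also required, and 2 to 8 with single arrays left out. Over all tested genes 586 were called at E14.5. In the same settings these were 1703, 1367 and 173, and 247 to 527 with single arrays left out. After quantile normalization 7 channel genes were called at E14.5 (647 of all genes), and with no filter on low values 6 (571 of all genes). Between stages 30 were called in red and 33 in green cells with the values as deposited, 5 in red cells after subtracting array medians, and 1 in red and 8 in green cells at a log2 difference of at least 1. All tested genes called between stages numbered 12041 in red and 12226 in green cells as deposited. They numbered 3861 in red cells after subtracting array medians, and 608 in red and 1101 in green cells at a log2 difference of at least 1. For the interaction, 6 were called with the replicate block, 4 with 1 weight per stage, 7 without the narrow-range arrays, and 1 to 3 with single arrays left out. Over all tested genes the interaction was called for 175. In the same settings these were 343, 197 and 486, and 76 to 214 with single arrays left out. Apart from fewer genes or arrays, the cause was not tested.

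Same-numbered E14.5 red and green arrays correlated at 0.07, 0.22 and 0.27 in their deviations, and E18.5 red and green arrays at 0.46, 0.41 and 0.06. For the E18.5 red arrays the highest r with a green array of another number was -0.03, -0.01 and 0.21. Whether same-numbered arrays share a source is not stated. With the replicate block Hcn4 was called between E18.5 red and green cells (adjusted p 0.037), Cacnb2 was not at E14.5, and Cacna1s and Cacng5 were not between stages in green cells (adjusted p 0.050 and 0.053). The number of arrays limits what can be seen, as does signal close to background for the 4 untested genes and for genes such as Cacna1f and Cacna1s at E14.5.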
